A study of Mus musculus with 37 samples.

Results

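The hemispheres of a single injured mouse were compared with each other, and that comparison was set against the same comparison in sham mice. Members were the mice with an astrocyte library from both sides of the cortex: 17 of 20 mice and 34 of 37 libraries. The injured group had 12 mice, 3 of which developed post-traumatic epilepsy (PTE+) and 9 of which did not (PTE-), and the sham group had 5 mice. For each gene and mouse the contralateral log2(TPM + 1) was subtracted from the ipsilateral one, so that a level shared by both sides of a mouse cancels. TPM is a length-corrected transcript abundance that sums to 1000000 in each library.

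The study asked which astrocyte genes go with seizures after a brain injury. Injured mice had a severe controlled cortical impact (CCI) over the right parietal cortex, and sham mice had the craniectomy without the impact; both carried recording electrodes. Cortical astrocytes were taken from each hemisphere 4 months after surgery with magnetic beads against the surface antigen ACSA-2, and their RNA was amplified with a low-input SMART-Seq kit. The labels give the genotypes WT CD31 Injured and WT CD31 Sham, whereas the methods of the study name male CD1 mice.

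Several properties limit these groups. Sham mice are not untouched, since they had the craniectomy and the electrodes, and no naive mice were analysed here. TPM keep no read depth, so the depth behind each value is unknown and no counting intervals are given. The libraries held between 15599 and 18534 genes above 0 TPM. Beads enrich astrocytes without removing every other cell, and in bulk RNA fewer cells of a type and less RNA per cell cannot be told apart.

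Astrocytes answer injury by becoming reactive: they make more intermediate filament protein, chiefly GFAP and vimentin, and secrete protease inhibitors, complement proteins and matrix. Cytokines of the CNTF, LIF and interleukin 6 group drive part of that response through the shared receptor subunit gp130 and the transcription factor STAT3. After a focal impact the response is strongest near the lesion, while a level that an animal carries in its whole brain is the same on both sides and drops out of a difference within the mouse.

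The cells carried astrocyte markers on both sides. All 16 of the 16 astrocyte identity genes were tested, none was at 0 in most libraries, and the most abundant was Aldoc, a glycolytic enzyme of astrocytes, with a mean of 10139 TPM. Their summed level ran from 22267 through a median of 25452 to 29251 TPM in ipsilateral libraries of injured mice, and was 23647, 24049.5, 24212, 27065 and 30669.8 TPM in those of sham mice a8_15, a8_16, a9_9, a9_10 and a9_11. In contralateral libraries the same sum ran from 23027 through 25279 to 30582 TPM in injured mice, and was 24366, 26714, 26765, 24486 and 26066 TPM in sham mice. The groups overlapped throughout, and the median injured minus sham difference of the list was 0.05, beside 0.08 over all 10695 tested genes. Aqp4, the water channel of astrocyte endfeet, was the 1 list member of 16 called, against 6.5% of all tested genes. Its mean hemisphere difference was 0.29 in injured and -0.14 in sham mice, and the call was lost when each library was centred on its median (0.31).

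Gfap, Serpina3n, C4b, Cntf and Ucma were called higher on the injured side of injured mice, and also in the contrast with sham mice. In that contrast limma called 0 genes at an adjusted p under 0.05. The 5 genes named first had the smallest limma p between the sides within injured mice. They were higher on the ipsilateral side in 12 of 12 injured mice, against 2, 2, 2, 2 and 3 of 5 sham mice in the same order. The count in injured mice largely follows from that choice and is not separate evidence. The rise within injured mice was 1.21 ± 0.64 for Gfap, 1.08 ± 0.52 for Serpina3n and 1.98 ± 1.01 for Cntf (log2 units, mean ± SD, n = 12). The plot of single-gene differences shows each mouse.

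**Figure D1:**
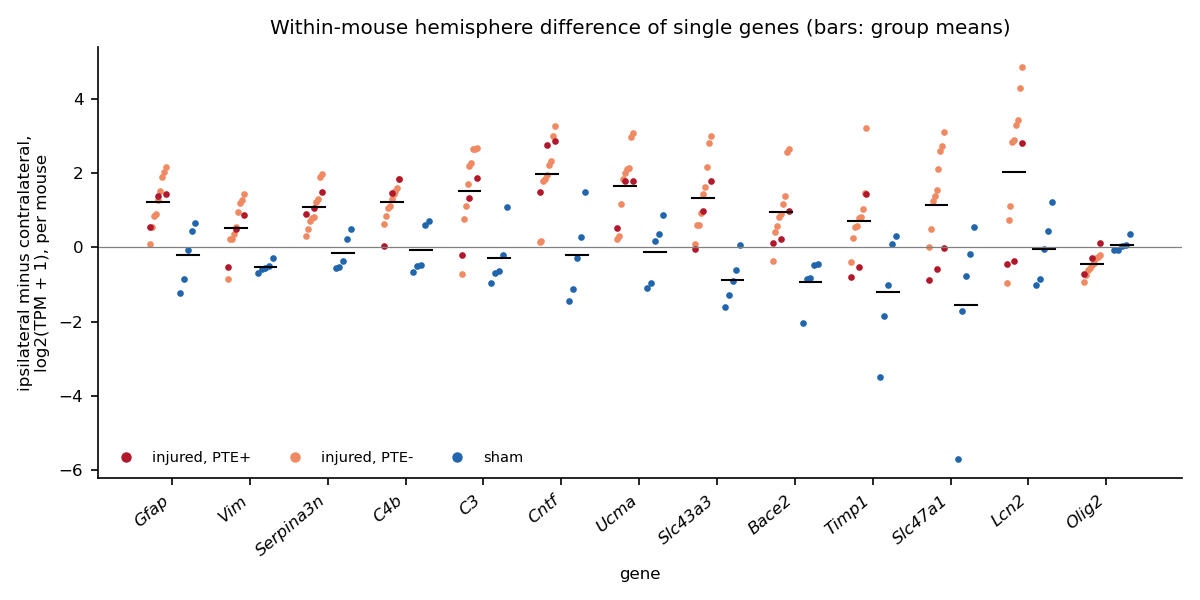
Ipsilateral minus contralateral log2(TPM + 1) of 13 genes, with 1 point per mouse (12 injured, 5 sham) and bars at the group means. Gfap, Serpina3n, C4b, Cntf and Ucma lie above 0 in 12 of 12 injured mice, Olig2 lies below 0 in 11 of 12, and Slc47a1 reaches -5.68 in sham mouse a9_10.

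Gfap (glial fibrillary acidic protein, ENSMUSG00000020932, chromosome 11, 102887336 to 102900912 on GRCm38) is the filament protein by which reactive astrocytes are recognised. In injured mice it ran from 422 through a median of 603 to 1065 TPM on the ipsilateral side and from 117 through 302 to 559.8 TPM on the contralateral side. In sham mice a8_15, a8_16, a9_9, a9_10 and a9_11 it was 188, 235, 245, 373 and 324 TPM ipsilaterally and 439.8, 174, 444, 389 and 204 TPM contralaterally. Every injured ipsilateral value thus lay above every sham ipsilateral value, whereas the contralateral ranges overlapped. The hemisphere difference of injured mice exceeded that of sham mice by 1.42 ± 0.32 (log2, SE; exact permutation p = 0.00162), and 9 of 12 injured mice lay above the highest sham mouse.

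Vim (vimentin), the partner filament of GFAP, ran from 86 through 142 to 225 TPM on the injured side of injured mice and from 62.5 through 88 to 156 TPM opposite. Sham values were 82.4, 75.9, 69.7, 94 and 42.7 TPM ipsilaterally and 125, 111, 85.3, 153 and 61.3 TPM contralaterally. All 5 sham mice had less Vim on the operated side, while 10 of 12 injured mice had more. The contrast was 1.04 ± 0.28 (exact permutation p = 0.00679), made of a mean difference of 0.51 in injured and -0.53 in sham mice. Among the intermediate filament genes 4 of 5 were tested and 3 were called higher: Gfap, Vim and Synm (synemin, 0.64 ± 0.30). For comparison, 6.5% of all tested genes were called, 5.9% higher and 0.598% lower. Synm lost its call when any 1 of 12 mice was left out (a8_10, a9_18, a8_9, a8_11, a8_13, a9_13, a9_15, a9_20, a8_15, a9_9, a9_10 and a9_11, with values from 0.55 to 0.65).

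Serpina3n (ENSMUSG00000021091, chromosome 12, 104406729 to 104414329), an inhibitor of serine proteases, ran from 72.9 through 119 to 179.9 TPM ipsilaterally and from 35.8 through 53.4 to 102 TPM contralaterally in injured mice. Its sham values were 43.8, 78.1, 103, 37 and 71.2 TPM ipsilaterally and 57.3, 67.3, 151, 54.2 and 50.2 TPM contralaterally. The ipsilateral ranges overlapped, as did the contralateral ones, yet 10 of 12 injured mice had a larger hemisphere difference than any sham mouse. Its contrast of 1.23 ± 0.24 had an exact permutation p of 0.000485. Close relatives of Serpina3n lie beside it in the genome, and reads shared with them were not examined.

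C4b (ENSMUSG00000073418, chromosome 17, 34728380 to 34743882), the complement component C4, ran from 56.5 through 91.7 to 151 TPM ipsilaterally and from 19.8 through 38.3 to 65.8 TPM contralaterally in injured mice. Sham values were 27.2, 56.2, 32.3, 44.4 and 69 TPM ipsilaterally and 38.8, 34.3, 45.1, 70.2 and 44.9 TPM contralaterally. Most injured ipsilateral values lay above the sham ones, with an overlap at the lower end, and the contralateral values overlapped more broadly. The contrast was 1.28 ± 0.27 (exact permutation p = 0.00129). C4b has a nearly identical neighbouring copy in the mouse, so part of its reads may not be assigned with certainty.

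C3, the protein on which all complement routes converge, was scarce: from 0.26 through 8.46 to 25.4 TPM ipsilaterally and from 0.72 through 1.41 to 5.65 TPM contralaterally in injured mice. Sham mice had 0.86, 3.5, 1.08, 3.76 and 2.83 TPM ipsilaterally and 2.01, 5.98, 1.42, 8.18 and 0.79 TPM contralaterally. C3 passed the filter (a group mean over 5 TPM) only through its ipsilateral injured mean of 8.84 TPM, the group where it is high. The side facing the lesion was higher in 10 of 12 injured mice and the operated side in 1 of 5 sham mice (contrast 1.80 ± 0.50, exact permutation p = 0.00646). Within mice whose names begin with 8 the contrast was 2.69, and within those beginning with 9 it was 1.19, no longer called, as it was not with the variance trend on the mean difference (limma p = 0.0646). Of the 15 complement genes 10 were tested, and 4 were called higher and 0 lower, with a median contrast of 0.42, beside 6.5% called and a median of 0.08 over all tested genes. Besides C3 and C4b these were Cd55 (1.5 ± 0.46) and Cd59a (0.97 ± 0.36), both of which shield cells from complement. The Cd55 difference was 0.27 in injured and -1.24 in sham mice, and that of Cd59a 0.44 and -0.53. Cd55 was not called without sham mice a8_16 and a9_10 together (1.14). Cd59a was not called without sham mouse a9_11 (0.77), nor in mice whose names begin with 8 (0.48). The first component genes C1qa and C1qb, made by microglia, had contrasts of 0.23 and 0.15 and were not called.

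Cntf (ENSMUSG00000079415, chromosome 19, 12763660 to 12765632), a cytokine that astrocytes release on injury, showed the widest gap between the sides among the adjusted genes. In injured mice it ran from 2.45 through 11.5 to 26.3 TPM ipsilaterally and from 0.34 through 1.43 to 11 TPM contralaterally. The sham values were 1.52, 1.83, 3.34, 0.21 and 2.14 TPM ipsilaterally and 1.07, 0, 8.38, 2.3 and 2.83 TPM contralaterally. Ipsilateral levels of most injured mice lay well above those of sham mice, with injured mice a9_12 (2.45 TPM) and a8_10 (2.76 TPM) inside the sham range, and contralateral levels overlapped. Cntf passed the filter (a group mean over 5 TPM) only through its ipsilateral injured mean of 11.6 TPM, the group where it is high. The contrast was 2.19 ± 0.51 (exact permutation p = 0.00178). It was 3.2 in mice whose names begin with 9 and 0.71, not called, in those beginning with 8. With limma's variance trend on the mean difference in place of the level it was not called (limma p = 0.557). The gene lies inside Zfp91 on the same strand, so reads running through from Zfp91 cannot be told apart.

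Cntf belongs to the group of gp130 cytokines, receptors and signal carriers, of which 10 of 15 genes were tested. Of these 3 were called higher and 0 lower, with a median contrast of 0.29, beside the same 6.5% and 0.08. Only Cntf stayed called under all 3 scalings. The others were Il6st, which encodes gp130 itself (0.51 ± 0.24), and Stat3 (0.40 ± 0.17). Stat3 was not called without sham mouse a8_15 (0.27) or a9_9 (0.37), nor after centring each library on its median (0.28). Il6st was not called when any 1 of 9 mice was left out (a9_18, a8_9, a8_11, a9_12, a9_15, a9_20, a8_15, a9_9 and a9_10, with values from 0.35 to 0.52), nor after centring (0.39). Cntfr, the receptor subunit that binds CNTF, had a contrast of -0.17 ± 0.30, Jak1 one of 0.23 ± 0.13 and Jak2 one of 0.12 ± 0.22, and none of these was called.

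Ucma, a secreted protein known from cartilage, ran from 3.58 through 8.84 to 36.6 TPM ipsilaterally and from 0.52 through 2.37 to 7.83 TPM contralaterally in injured mice. Sham mice had 2.8, 4.26, 1.71, 3.13 and 0.55 TPM ipsilaterally and 1.98, 1.9, 1.39, 7.85 and 1.99 TPM contralaterally. The injured ipsilateral range began inside the sham range and reached far above it. Ucma passed the filter (a group mean over 5 TPM) only through its ipsilateral injured mean of 11.5 TPM, the group where it is high. Its contrast was 1.79 ± 0.45 (exact permutation p = 0.00323), not called with the variance trend on the mean difference (limma p = 0.245).

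**Figure D2:**
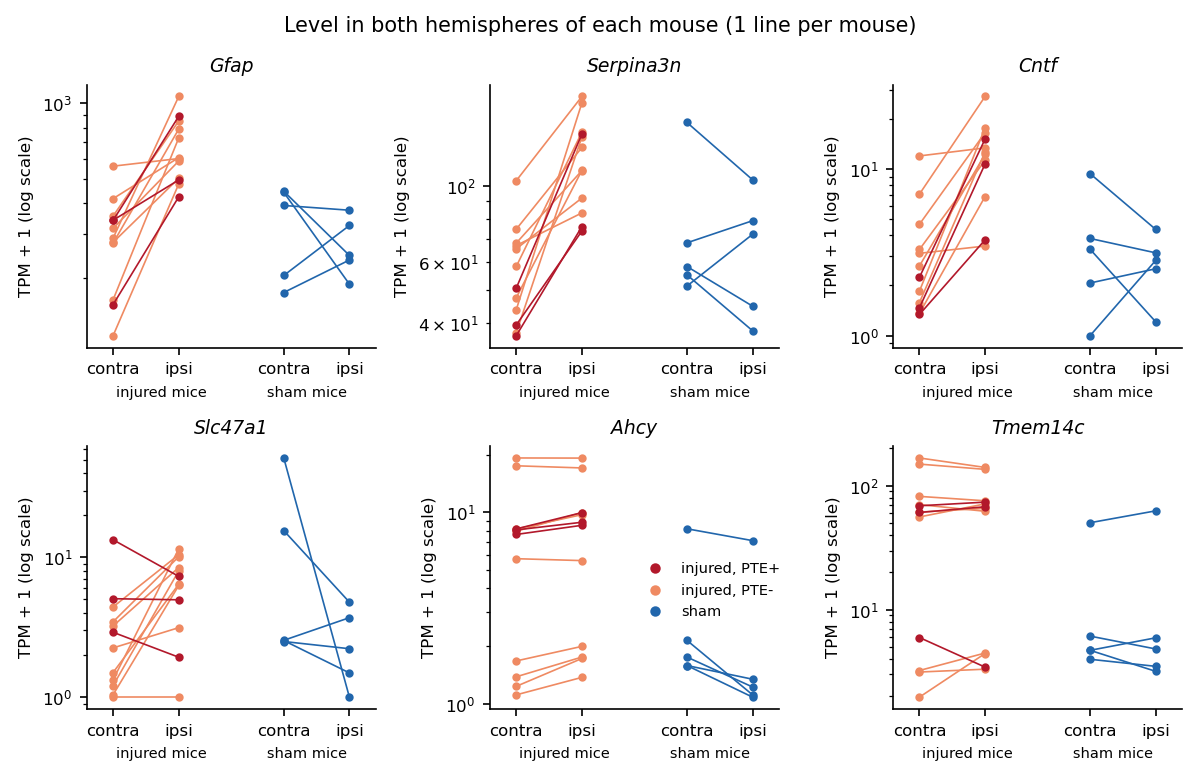
TPM + 1 (log scale) in the contralateral and ipsilateral library of each mouse for 6 genes, with 1 line per mouse. Lines of Gfap, Serpina3n and Cntf climb towards the ipsilateral side in 12 of 12 injured mice; those of Slc47a1 drop steeply in sham mice a8_16 and a9_10; those of Ahcy and Tmem14c stay nearly flat while mice differ widely.

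Lists of reactive astrocyte genes were counted as well. Of 13 genes raised in reactive astrocytes of any origin 11 were tested, and 9 were higher on the ipsilateral side of injured mice and 0 lower, against 4.58% of all tested genes called in either direction. In sham mice 0 of the same 11 were higher and 2, Timp1 and Vim, were lower on the operated side, against 9.04% of all genes. The injured minus sham contrast called 7 higher and 0 lower, against 6.5% of all tested genes: Gfap, Vim, Serpina3n, Timp1, Lcn2, Cd44 and Aspg. Without sham mice a8_16 and a9_10 together Timp1 (1.18), Lcn2 (1.77) and Aspg (0.46) were not called. The list medians were 0.70 in injured mice, -0.15 in sham mice and 0.70 for the contrast, beside -0.01, -0.09 and 0.08 over all tested genes. Cd44, a receptor for hyaluronan, was called in the contrast (0.59 ± 0.27) but not when any 1 of 9 mice was left out (a9_18, a8_11, a8_13, a8_14, a9_12, a9_15, a8_15, a9_9 and a9_10, with values from 0.40 to 0.58), nor after centring (0.47).

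The summed level of the pan-reactive list, led by Gfap, ran from 742 through 1116 to 1589 TPM ipsilaterally and from 404 through 595 to 909 TPM contralaterally in injured mice. In sham mice the sums were 522, 645, 521, 661 and 648 TPM ipsilaterally and 785, 828, 764, 837 and 545 TPM contralaterally. Every injured ipsilateral sum lay above every sham ipsilateral sum. The ipsilateral sum was the larger one in 12 of 12 injured mice and in 1 of 5 sham mice, a9_11.

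Further lists are read beside the 6.5% of all tested genes called in the contrast. Of 12 genes ascribed to the A1 type of reactive astrocyte 10 were tested and 2 were called higher, C3 and Ggta1 (0.58 ± 0.22), an enzyme that adds galactose to glycans, with a list median of 0.31. Ggta1 was not called without sham mouse a8_16 (0.44). Of 12 A2 type genes 5 were tested and 1 was called higher, S100a10 (0.89 ± 0.37, list median 0.78), which was not called without sham mouse a9_10 (0.56) or a9_11 (0.76). Of 17 interferon and MHC class I genes 0 were called, with a median of 0.11; the most abundant, H2-D1, had a contrast of 0.11 ± 0.26. Among 11 tested of 16 matrix and scar genes, 1 was called higher, Lgals3 (galectin 3, 0.78 ± 0.29), with a list median of 0.23. Lgals3 was not called in mice whose names begin with 9 (0.49), nor without sham mice a8_16 and a9_10 together (0.68). The homeostasis list of 16 ion, water and transmitter genes had 1 call, Aqp4, and a median of 0.13; Glul (glutamine synthetase) and Slc1a3 (a glutamate transporter) had contrasts of -0.15 and 0.24 and were not called.

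Within injured mice 490 genes differed between the sides by the criteria used throughout (limma, p below 0.05 before adjustment, at least 1.2-fold), 263 higher and 227 lower on the ipsilateral side, and 990 passed the p criterion alone. At an adjusted p under 0.05 limma called 19 genes, 16 higher and 3 lower ipsilaterally. That count came from a variance trend on the level of a gene, and was 0 with a trend on the mean difference and 15 with none. Quantile normalization gave 42, centring 32, array weights 66 and the name prefix as a covariate 29. It was 11 without a8_11, 10 without a8_14, 10 without a9_15 and 43 without a9_17, all injured mice. Besides C4b (adjusted p = 0.000403), Serpina3n (0.000403), Cntf (0.00183), Gfap (0.00218), Ucma (0.00218) and C3 (0.0168), it held Cd44 and the purine transporter gene Slc43a3. The others with a known task included Mgst1, a glutathione transferase of membranes, and Ugdh, which makes the sugar acid of hyaluronan. Those 2 were chosen after their values were seen, and their mean differences were 0.47 ± 0.41 and 0.38 ± 0.21 (SD, n = 12), higher in 12 of 12 injured mice each.

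The 3 genes that fell on the injured side at an adjusted p were Olig2, Gpd1 and Eogt; the last 2 were chosen after their values were seen. Gpd1, a glycerol phosphate dehydrogenase, ran from 23.6 through 30.9 to 45.5 TPM ipsilaterally and from 31.8 through 45.6 to 61.7 TPM contralaterally in injured mice, and was 29.3, 29.9, 54.6, 42.7 and 43.4 TPM against 32.9, 27.2, 68.6, 41.6 and 38.8 TPM in sham mice. It was lower on the injured side in 12 of 12 injured mice and on the operated side in 2 of 5 sham mice. Eogt, an enzyme that adds a sugar to secreted proteins, had mean differences of -0.50 in injured and -0.42 in sham mice, lower ipsilaterally in all 17, and its contrast of -0.08 was not called.

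Short windows before the 19 genes were read for letters that STAT and AP-1 factors are known to bind. RefSeq (GRCm38.p6) held a window of 250 bases for 15 of the 19. On either strand TTCNNNGAA was present in 2 of them, Phyhd1 and Scg5, and in 7.02% of 32851 windows of all genes; TTC and GAA parted by 4 letters in place of 3 in 2, Cd44 and Gfap, and in 5.85%; and TGANTCA in 2, Cntf and Phyhd1, and in 6.75%. The Cntf window (chr19:12765633-12765882, minus strand, within Zfp91) is shown with the TGANTCA match in capitals, 245 bases before the start of the gene. A match describes letters and not a bound site.
Cntf: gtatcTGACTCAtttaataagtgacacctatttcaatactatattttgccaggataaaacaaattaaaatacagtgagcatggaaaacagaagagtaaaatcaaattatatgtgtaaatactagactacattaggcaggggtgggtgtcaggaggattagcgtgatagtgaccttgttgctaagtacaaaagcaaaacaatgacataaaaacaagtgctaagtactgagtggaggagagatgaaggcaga

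The direct comparison of the hemisphere difference between injured and sham mice called 695 of 10695 genes, 631 higher and 64 lower in injured mice. Of all tested genes 748 had p below 0.05 without adjustment, and limma called 0 at an adjusted p under 0.05, the smallest being 0.310 for Serpina3n. The median contrast over all tested genes was 0.08, from -0.01 in injured and -0.09 in sham mice, and 67.3% of genes lay above 0. That shift depended on scaling: quantile normalization gave 492 calls with 262 higher, and centring each library on its median gave 606 calls with 224 higher and moved the median to -0.04. Under all 3 scalings 246 genes were called (2.3% of tested genes), 191 higher and 55 lower. The count was 408 without sham mouse a9_10 and 1107 without sham mouse a9_11.

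Sham mice also differed between the sides. Their operated side differed from the opposite side at 967 genes, 55 higher and 912 lower, with 1110 at p below 0.05 without adjustment and 0 after Benjamini-Hochberg adjustment in limma. With quantile normalization it was 582 genes, 281 higher, and with centring 686 genes, 419 higher. Without sham mouse a8_15 the count was 617 and without a9_10 it was 529. For the 631 genes called higher in the contrast, the injured minus sham difference was larger in the contralateral library for 347 and in the ipsilateral library for 284. The mean hemisphere difference lay further from 0 in sham mice for 496 of the 631 and in injured mice for 135. In 139 of them the injured mean passed 1.2-fold.

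Slc43a3 and Bace2 had contrasts near that of Cntf, with a share from each group. Slc43a3 (ENSMUSG00000027074, chromosome 2, 84936579 to 84958509), a carrier of purine bases, ran from 5.67 through 10.3 to 48.5 TPM ipsilaterally and from 1.26 through 3.73 to 31.6 TPM contralaterally in injured mice, and was 2.84, 4.35, 16.4, 1.74 and 1.78 TPM against 4.91, 4.15, 31.4, 7.4 and 5.71 TPM in sham mice. It was higher on the injured side in 11 of 12 injured mice and higher on the operated side in 1 of 5 sham mice, with a contrast of 2.20 ± 0.43 (exact permutation p = 0.000646). Bace2 (ENSMUSG00000040605, chromosome 16, 97356742 to 97442936), a membrane protease related to the beta-secretase of the amyloid precursor, ran from 6.3 through 12.8 to 26.6 TPM ipsilaterally and from 2.0 through 5.74 to 12.1 TPM contralaterally in injured mice, and was 3.82, 2.84, 5.75, 3.17 and 2.77 TPM against 7.58, 4.2, 8.41, 16.2 and 5.78 TPM in sham mice. Its ipsilateral levels did not overlap between injured and sham mice, nor did its hemisphere differences, from -0.36 to 2.65 in injured mice and -0.83, -0.44, -0.48, -2.05 and -0.85 in sham mice. The contrast was 1.88 ± 0.41 (exact permutation p = 0.000485). Slc43a3, Bace2, Gfap, Vim, Serpina3n and C4b were the 6 of 47 named called genes that were called in each of 14 alternative settings and with each of 17 mice left out.

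Bace2 was 1 of 7 genes (0.0655% of those tested) whose hemisphere differences did not overlap between injured and sham mice, all 7 higher in injured mice. The others were Ahcy, P4ha3, Bhlhb9, Mgst1, Mcm9 and Fam84b, of which all but Ahcy were chosen after their values were seen. A contrast above 0 was found for 67.3% of all tested genes. With so many genes some separate by chance, and that number was not estimated. Separation was examined on uncentred differences only. P4ha3, a subunit of the enzyme that hydroxylates collagen prolines, ran from -0.08 through 0.35 to 0.92 in injured mice and was -0.09, -0.15, -0.34, -0.59 and -0.26 in sham mice (log2 hemisphere difference). Mgst1 ran from 0.00 through 0.36 to 1.38 in injured mice and was -0.18, -0.23, -0.28, -0.04 and -0.29 in sham mice. The contrasts were 0.62 ± 0.15 and 0.67 ± 0.17, and those of Bhlhb9, Mcm9 and Fam84b were 0.48 ± 0.11, 0.56 ± 0.16 and 0.63 ± 0.20.

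Further genes stood at the ends of the called list. Higher in injured mice was 1500015O10Rik, the precursor of a secreted peptide, which ran from 8.29 through 28.2 to 69.2 TPM ipsilaterally and from 4.05 through 10 to 46.6 TPM contralaterally in injured mice, and was 16.6, 10.3, 9.03, 7.73 and 2.78 TPM against 18.8, 23.1, 9.5, 27.6 and 5.2 TPM in sham mice. All 5 sham mice had less of it on the operated side, against 3 of 12 injured mice, and the contrast was 1.91 ± 0.56 (exact permutation p = 0.0115), or 1.33, not called, in mice whose names begin with 9. Gm17604 (2.70 ± 1.11, exact permutation p = 0.0837) was at 0 TPM on both sides in most mice, and its call was lost with a pseudocount of 0.1 (limma p = 0.0654), without sham mouse a8_15 (1.90) or a9_11 (1.72). The largest lower contrasts were those of the gene models Gm10974 (-2.31) and Gm10337 (-1.94), at 0 TPM in most libraries. Kcnab3 (-0.69) and Zfp433 (-0.63) were called lower too. With 1 mouse left out Gm10974, Gm10337, Kcnab3 and Zfp433 stayed called in 14, 15, 9 and 13 of 17 fits. The first 3 of them lost their calls with a pseudocount of 0.1. Also lower in injured mice were Zkscan6, a zinc finger gene (-0.63 ± 0.19, exact permutation p = 0.00388), Rtn4r, the receptor of the growth inhibitor Nogo (-0.68 ± 0.32), and Tonsl, a gene of DNA repair (-0.66 ± 0.25). Rtn4r was not called when any 1 of 12 mice was left out (a8_10, a9_17, a9_18, a8_13, a9_12, a9_13, a9_15, a9_16, a9_20, a8_15, a8_16 and a9_10, with values from -0.49 to -0.70), and Tonsl was not called without sham mouse a9_10 (-0.53). Zkscan6 was -0.34, not called, in mice whose names begin with 9.

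Another set of genes had a large contrast together with high contralateral levels in some sham mice. Slc47a1, Timp1, Lcn2, Prg4 and Ccn3 stood out in the contralateral libraries of sham mice a8_16 and a9_10. Injured minus sham, they were lower on the contralateral side by a log2 difference of -1.42, -0.87, -1.62, -1.22 and -1.21, and higher on the ipsilateral side by 1.28, 1.03, 0.47, 0.17 and 0.68. The plot of both parts of the contrast sets these beside Cntf and Gfap, whose contralateral parts were -0.13 and -0.15. Among contralateral libraries Cd74 and H2-Ab1, genes of antigen presentation, were also highest in a8_16 and a9_10. Cd74 was at 117 and 261 TPM there and H2-Ab1 at 71 and 126 TPM, against at most 83.4 and 34.1 TPM contralaterally in injured mice. Ipsilaterally they reached 155.1 and 76.7 TPM in injured mouse a9_20, beside 178 and 50.8 TPM in sham mouse a9_10. Neither was called in the contrast.

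**Figure D3:**
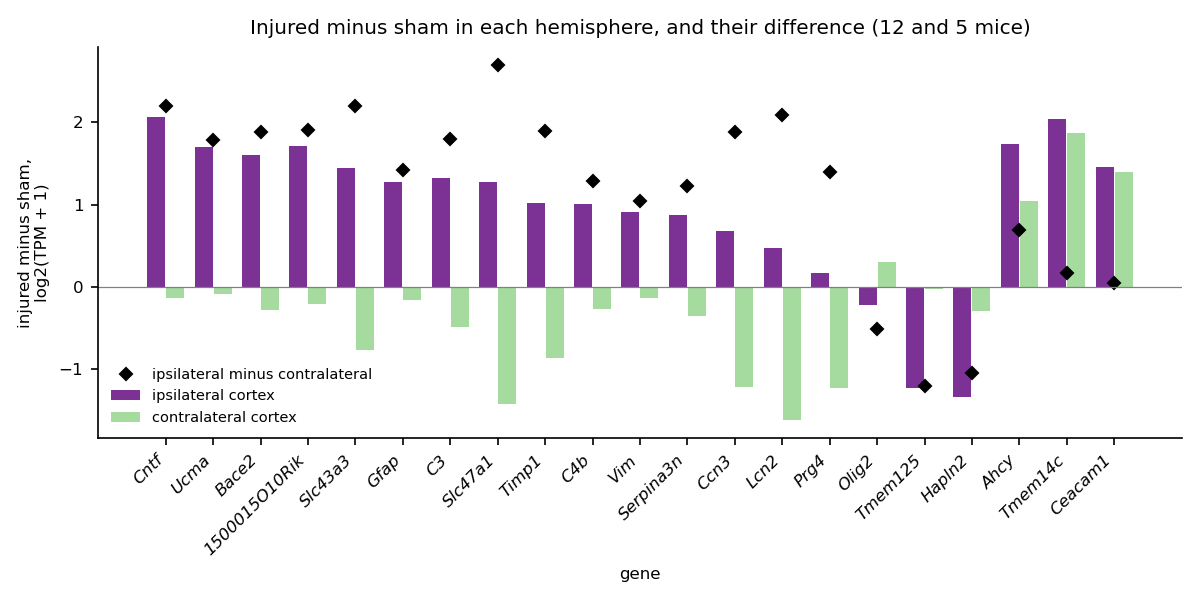
Injured minus sham log2(TPM + 1) in the ipsilateral and contralateral libraries (bars) and their difference (diamonds) for 21 genes, from 12 injured and 5 sham mice. Cntf, Ucma and Gfap have nearly all of their contrast in the ipsilateral bar, and Lcn2 and Prg4 have most of it in the contralateral bar. Slc47a1 has bars of nearly equal size in opposite directions, and Tmem14c and Ceacam1 have like bars on both sides that cancel.

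Slc47a1, an exporter of organic cations, ran from 0 through 5.87 to 10.5 TPM ipsilaterally and from 0 through 1.58 to 12.4 TPM contralaterally in injured mice. Sham mice had 1.22, 3.78, 2.7, 0 and 0.49 TPM ipsilaterally and 1.5, 14.6, 1.55, 50.4 and 1.54 TPM contralaterally. Sham mice a8_16 and a9_10 held the 2 highest contralateral values of all 17 mice, and the other 3 sham mice lay within the injured range. The contrast was 2.70 ± 0.80 (exact permutation p = 0.00598), 1.67 without a9_10, and 1.28, not called, without both mice.

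Timp1, an inhibitor of matrix metalloproteases, ran from 1.0 through 4.16 to 19.7 TPM ipsilaterally and from 0.51 through 2.35 to 3.74 TPM contralaterally in injured mice, and was 0, 18, 0.84, 0 and 1.28 TPM against 2.63, 37.4, 0.48, 10.2 and 1.13 TPM in sham mice. Again a8_16 and a9_10 held the highest contralateral values. The contrast was 1.89 ± 0.58 (exact permutation p = 0.00792) and 1.18, not called, without both.

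Lcn2, a secreted protein that binds bacterial iron carriers, ran from 0 through 7.79 to 61.3 TPM ipsilaterally and from 0 through 0.67 to 1.69 TPM contralaterally in injured mice, and was 0, 38.2, 1.35, 21 and 0.44 TPM against 0.81, 78.6, 0, 21.7 and 0.060 TPM in sham mice. Sham mice a8_16 and a9_10 were high on both sides, and the other 3 sham mice had at most 1.35 TPM on either side. The contrast of 2.09 ± 0.81 (exact permutation p = 0.0423) was 1.85, not called, without a8_16, and was not called with the variance trend on the mean difference (limma p = 0.712).

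Prg4 (lubricin) ran from 0.080 through 1.0 to 3.1 TPM ipsilaterally and from 0.030 through 0.665 to 2.29 TPM contralaterally in injured mice, and was 0.55, 5.71, 0.10, 0 and 0.15 TPM against 0.70, 14.3, 0.37, 8.03 and 2.01 TPM in sham mice. Its contrast of 1.39 ± 0.47 was 0.91 without a9_10 and 0.77, not called, without both mice. Ccn3, a matricellular signalling protein, had a contrast of 1.89 ± 0.63, and 1.14, not called, without both. Slc47a1 and Prg4 are also genes of the brain coverings: of 12 meningeal and fibroblast genes 11 were tested, and these 2 were called higher in the contrast, against 6.5% of all tested genes. Prg4 passed the filter on TPM only through its contralateral sham mean of 5.08 TPM. The sum of that list, led by Dcn with a mean of 57.1 TPM, ran from 126 through 175 to 247 TPM ipsilaterally and from 103 through 181 to 335 TPM contralaterally in injured mice. In sham mice it was 128, 305, 239, 75.5 and 156 TPM ipsilaterally and 116, 232, 193, 387 and 251 TPM contralaterally, highest in the contralateral library of a9_10. None of the 11 was at 0 in most libraries, 4 of them (Prg4, Slc47a1, Lum and Foxc1) were lower on the operated side of sham mice, where 9.04% of all genes were called, nearly all lower, and the part of such cells in the result was not tested.

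Of the 5 genes the study names as raised after CCI on the ipsilateral side, 4 were called higher in the contrast: Cntf, C3, Ucma and Ahcy. For all 4 lists, the share of all tested genes called in the contrast was 6.5%, 5.9% higher and 0.598% lower. Of the 5 it names as lowered there, 2 were called lower, Hapln2 and Tmem125. For the contralateral side, 1 of the 5 raised genes was called (Rbm46, higher, 0.50 ± 0.22) and 4 of the 5 lowered genes were called higher, Timp1, Prg4, Slc47a1 and Lcn2. The contralateral level is subtracted in the contrast, so a fall on that side raises it and is not opposite to the study. The study chose these lists on the same samples, so their counts are not independent evidence of direction. Rbm46 was not called when any 1 of 8 mice was left out (a8_13, a9_13, a9_15, a9_16, a8_15, a8_16, a9_9 and a9_11, with values from 0.44 to 0.52), nor after centring (0.38).

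The lineage factors Olig1 and Olig2 were called lower in the contrast. Olig2 (ENSMUSG00000039830, chromosome 16, 91225457 to 91228677), the transcription factor that sets oligodendrocyte fate, ran from 23.1 through 35.6 to 70.7 TPM ipsilaterally and from 33.2 through 46.1 to 105 TPM contralaterally in injured mice. In sham mice it was 35.7, 37.7, 57.3, 37 and 51.1 TPM ipsilaterally and 37.8, 36.3, 44.7, 38.8 and 49.8 TPM contralaterally. Levels overlapped between the groups on both sides, but 11 of 12 injured mice had less Olig2 on the injured side, and the sham mice lay between -0.08 and 0.35. The fall within injured mice was -0.45 ± 0.29 (SD, n = 12, adjusted p = 0.0113 in limma), and the contrast was -0.51 ± 0.14 (exact permutation p = 0.00275). Its sister Olig1 had a contrast of -0.37 ± 0.14 and was not called without sham mouse a9_10 (-0.30). They were the 2 of 7 tested precursor genes called in the contrast, both lower, against 6.5% of all tested genes, while the list median was 0.19 and Sox10 and Cspg4 had contrasts of 0.64 ± 0.39 and 0.19 ± 0.34.

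Of 15 genes of myelinating oligodendrocytes 13 were tested, and 6 fell on the injured side of injured mice: Mbp, Mog, Mobp, Mal, Ermn and Hapln2, where 4.58% of all tested genes were called. In sham mice 0 of the 13 were called, against 9.04% of all genes. The contrast, with 6.5% of all genes called, called 2 lower, Tmem125 (-1.20 ± 0.50) and Hapln2 (-1.04 ± 0.48), with a list median of -0.59. Tmem125 was not called without sham mouse a8_16 (-0.95) or a9_10 (-0.89), and Hapln2 was not called when any 1 of 10 mice was left out (a9_17, a8_9, a8_11, a9_12, a9_13, a9_15, a9_16, a8_16, a9_9 and a9_10, with values from -0.74 to -1.04). Mbp, the most abundant of the list, ran from -2.24 through -0.73 to 0.87 in injured mice (log2 hemisphere difference) and was 0.44, 1.62, -0.04, 1.07 and -2.11 in sham mice, whose values spread as widely.

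The sum of the oligodendrocyte list was 888 at the lowest, 1399 at the median and 2390.4 TPM at the highest on the ipsilateral side of injured mice, and 878, 2238 and 3819.8 TPM on the contralateral side. In sham mice it was 1822, 4191, 3156, 4511 and 544 TPM ipsilaterally and 1889, 1638, 3449, 2389 and 1068 TPM contralaterally. Sham mice a8_16 and a9_10 held more oligodendrocyte RNA on the operated side (log2 ratios 1.36 and 0.92) and a9_11 held less (-0.97). None of the 13 tested genes was at 0 in most libraries, so such RNA was present throughout, and its part in the result was not tested.

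Other cell types are shown in the plot of list medians. Centring each library turned the sign of list medians near 0, to -0.07 for astrocyte identity, -0.01 for interferon and MHC class I, -0.09 for endothelial, -0.06 for mural and -0.02 for metallothionein genes. All 8 ependymal genes, from cells that line the ventricles, had a positive contrast, with a median of 0.97 (0.43 in injured and -0.55 in sham mice). Over all tested genes 67.3% had a contrast above 0. Of the 8 ependymal genes 0 were called, against 6.5% of all tested genes. Their sum, led by Rarres2, was 425 at the lowest, 689.9 at the median and 1269.5 TPM at the highest ipsilaterally and 305, 517 and 1447 TPM contralaterally in injured mice, beside 871, 609.6, 507, 449 and 276 TPM and 584, 774, 403, 937 and 442 TPM in sham mice. Of 5 haemoglobin and other red cell genes 0 were called, with a median contrast of -0.73. Their summed level was higher ipsilaterally in 4 of 12 injured and 3 of 5 sham mice. Their sum, led by Hba-a1, was 522 at the lowest, 1862 at the median and 3837 TPM at the highest ipsilaterally and 1158, 1943 and 7729 TPM contralaterally in injured mice, beside 4688, 507, 907, 12624 and 2123 TPM and 1186, 2247, 569.7, 2664 and 4925 TPM in sham mice. The sums of both lists overlapped between injured and sham mice on both sides.

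**Figure D4:**
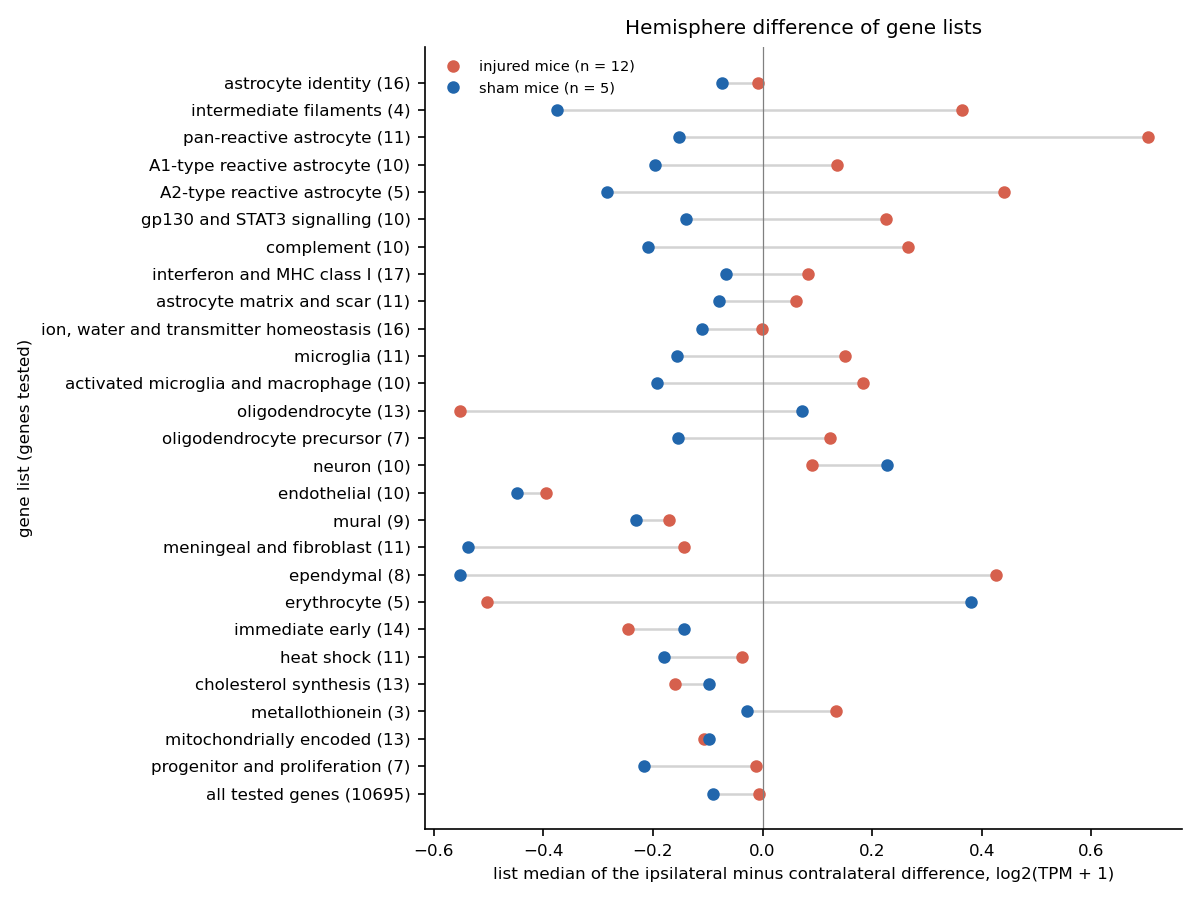
Median over each gene list of the mean ipsilateral minus contralateral log2(TPM + 1), in 12 injured and 5 sham mice, with the number of tested genes in brackets. Injured and sham medians lie far apart for pan-reactive astrocyte genes (0.70 and -0.15), lie in reverse order for oligodendrocyte genes (-0.55 and 0.07), and nearly coincide for endothelial genes (-0.40 and -0.45).

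Vessel genes were called lower on the ipsilateral side within each group, Itm2a and Rgs5 in both. Of 11 endothelial genes 10 were tested; 5 were lower on the ipsilateral side of injured mice, Ly6c1, Itm2a, Slco1a4, Flt1 and Pecam1, and 4 in sham mice, Itm2a, Abcb1a, Kdr and Vwf. Of all tested genes 4.58% were called in injured and 9.04% in sham mice, where 912 of 967 calls were lower before and 267 of 686 after centring. The contrast, with 6.5% of all tested genes called, called 1 of the 10 higher, Abcb1a (0.70 ± 0.28), an efflux pump of the blood-brain barrier. The list median was 0.02. Abcb1a was not called without sham mouse a9_9 (0.61) or a9_11 (0.59). Of 9 mural genes 0 were called in the contrast, with a median of 0.06, and Rgs5, a pericyte marker, was lower on the ipsilateral side in injured (-0.41) and in sham mice (-0.47).

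Immune cell and neuron lists are set beside the 6.5% of all tested genes called in the contrast. Of 12 microglia genes 11 were tested and 0 were called, with a median contrast of 0.31 and 10 of 11 above 0. Of 18 genes of activated microglia and macrophages 10 were tested and 1 was called higher, Lyz2 (lysozyme, 0.54 ± 0.21), which was not called without sham mouse a8_16 (0.43). Among 10 tested neuron genes 1 was called higher, Gad1 (0.54 ± 0.21), an enzyme of GABA synthesis, while the list median was -0.18. Gad1 was not called without sham mouse a8_15 (0.46) or a9_9 (0.45), nor after centring (0.42).

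Stress, housekeeping and proliferation lists are set beside the 6.5% of all tested genes called in the contrast. Of 14 tested immediate early genes 0 were called in the contrast (median -0.08), although 4 were lower on the injured side of injured mice, Dusp1, Ier2, Klf2 and Klf4, and 2 on the operated side of sham mice, Klf4 and Klf6, against 4.58% and 9.04% of all tested genes. Cholesterol synthesis (13 genes, median -0.08), metallothioneins (3 genes, 0.10) and mitochondrially encoded genes (13 genes, -0.01) had 0 calls. Heat shock genes had 1 of 11, the co-chaperone Bag3 (0.33 ± 0.15), not called when any 1 of 7 mice was left out (a9_18, a8_13, a9_13, a9_15, a9_16, a8_15 and a9_10, with values from 0.23 to 0.32), nor under either other scaling (0.21 after centring and 0.20 after quantile normalization). Of 12 progenitor and proliferation genes 7 were tested and 2 were called higher, the transcription regulators Id3 (0.28 ± 0.12) and Id4 (0.43 ± 0.16). Both lost their calls after centring (0.16 and 0.31) and without sham mouse a8_15 (0.23 and 0.27); Id3 lost its call also without a8_16 (0.24) and 3 injured mice, a8_11 (0.26), a9_15 (0.23) and a9_20 (0.26).

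Some genes that separated mice vanished when the sides were subtracted. Tmem14c, a carrier of heme precursors in mitochondria, ran from 2.31 through 65.7 to 139.5 TPM ipsilaterally and from 0.97 through 60.1 to 167 TPM contralaterally in injured mice, and was 3.82, 2.49, 2.18, 61.7 and 4.93 TPM against 5.12, 2.98, 3.7, 49.3 and 3.7 TPM in sham mice. A mouse was either high on both sides or low on both, sham mouse a9_10 being high. Injured mice exceeded sham mice by 2.04 ipsilaterally and 1.87 contralaterally, and the contrast was 0.17 ± 0.23 (exact permutation p = 0.5, not called). Ceacam1, a cell adhesion molecule, gave 1.46 and 1.40 with a contrast of 0.05 ± 0.30, also not called.

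Ahcy, which breaks down S-adenosylhomocysteine, combined both patterns. It ran from 0.37 through 7.71 to 18.2 TPM ipsilaterally and from 0.11 through 6.81 to 18.2 TPM contralaterally in injured mice, and was 0.11, 6.11, 0.34, 0.22 and 0.080 TPM against 1.14, 7.2, 0.58, 0.75 and 0.58 TPM in sham mice. Mice fell into high and low carriers on both sides, yet the small differences left between the sides did not overlap: -0.04 to 0.48 in injured mice and -0.95, -0.21, -0.24, -0.52 and -0.55 in sham mice. The contrast of 0.70 ± 0.19 had the smallest exact permutation p that 6188 splits of the mice can give, 0.000162. In 4 of the 5 sham mice Ahcy was near or under 1 TPM on both sides, where the log2(TPM + 1) scale compresses differences.

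The likeness of the hemispheres was measured as the variance of the mouse mean divided by that of the hemisphere difference on the same scale (the difference halved), within groups. The ratio was above 1 for 93.8% of tested genes, with a median of 2.72, and above 10 for 252. The 10 genes most alike were Gm10184 (214), Prss22 (194), Ahcy (165), Tpm3-rs7 (162), Ifit3 (126), Glo1 (125), Gm10320 (108), Retsat (99), Kpna2 (94.2) and Tmem14c (87.5). Glo1 detoxifies methylglyoxal, Retsat is a retinol saturase and Ifit3 an interferon-induced gene.

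The hemisphere differences of Gfap, Serpina3n, C4b and Cntf were not called between injured mice with and without epilepsy. PTE+ minus PTE- was -0.13 ± 0.37 for Gfap, 0.09 ± 0.31 for Serpina3n, -0.14 ± 0.31 for C4b and 0.52 ± 0.60 for Cntf (log2, SE). Over all genes 317 were called (2.96%), 110 higher and 207 lower in PTE+ mice, 318 had p below 0.05 without adjustment, and limma called 0 after adjustment. The split reversed with scaling, 230 of 373 being higher after quantile normalization and 227 of 359 after centring. Leaving out 1 mouse gave 136 (a9_17), 832 (a8_10) and 618 (a9_15) calls. With 3 PTE+ mice the 220 splits allow no exact p below 0.00455.

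The hemisphere differences of Slc47a1 and Ccn3 were called lower in PTE+ mice. Contralateral Slc47a1 was 4.06, 12.36 and 1.91 TPM in PTE+ mice a8_10, a9_17 and a9_18, against 0 to 3.42 TPM in PTE- mice. Contralateral Ccn3 was 14.39, 23.43 and 10.98 TPM against 2.81 to 11.82 TPM. Ipsilateral Slc47a1 was 3.97, 6.31 and 0.93 TPM against 0 to 10.51 TPM. Ipsilateral Ccn3 was 14.3, 20.16 and 6.66 TPM against 3.21 to 43.26 TPM. The study names Slc47a1 as raised contralaterally in PTE+ mice, from samples that include these contralateral libraries, so its result is not independent of these values. The hemisphere difference of Slc47a1 was -0.03, -0.87 and -0.59 in the PTE+ mice a8_10, a9_17 and a9_18, and ran from 0.00 through 1.55 to 3.11 in PTE- mice. That of Ccn3 was -0.01, -0.21 and -0.65 in PTE+ mice and ran from -0.43 through 1.77 to 3.11 in PTE- mice. The Slc47a1 values did not overlap, though PTE- mouse a9_12, with 0 TPM on both sides, lay next to the PTE+ mice, and for Ccn3 it lay among them. The differences were -2.18 ± 0.56 (exact permutation p = 0.00909) and -1.94 ± 0.61 (0.0227). Repeat-like gene models were also called, among them Gm10800 (2.94 ± 1.22, exact permutation p = 0.0818) and Gm10719 (2.74 ± 1.14); these share sequence and are not independent. Cnp, an enzyme of myelin, was 0.37 ± 0.13 (exact permutation p = 0.0182).

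Over all genes the hemispheres of injured mice were not shown to lie farther apart than those of sham mice. The median absolute hemisphere difference per mouse ran from 0.168 through 0.219 to 0.297 in injured mice and was 0.279, 0.292, 0.183, 0.284 and 0.228 in sham mice a8_15, a8_16, a9_9, a9_10 and a9_11. The ranges overlapped, and the means differed by -0.02 (exact permutation p = 0.375). The signed median per mouse ran from -0.156 in a8_14 to 0.171 in a9_15 among injured mice and from -0.194 in a9_10 to 0.002 in a9_11 among sham mice (exact permutation p of the difference in means 0.0669). Single injured mice also differed: of the 35 named genes called higher in the contrast, a9_12 had the lowest difference of all injured mice in 11 and a9_17 in 7, and a9_17 lay below 0 in 21.

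**Figure D5:**
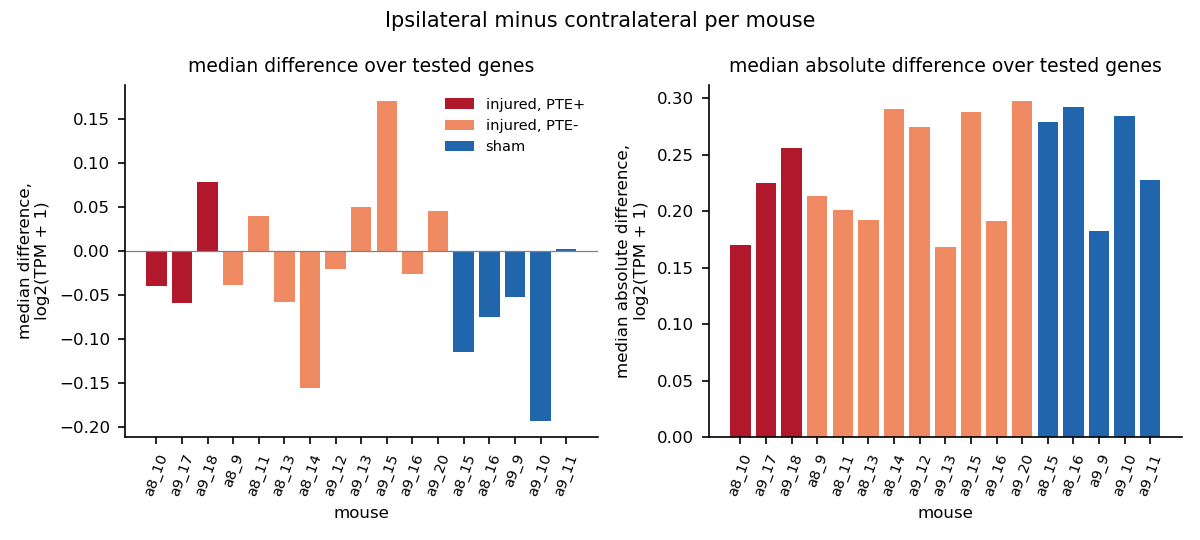
Median (left) and median absolute (right) ipsilateral minus contralateral log2(TPM + 1) over 10695 tested genes, with 1 bar per mouse. Injured mice lie on both sides of 0 in the left panel, 4 of 5 sham mice lie below 0, and the bars of the right panel overlap between the groups.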

How the data were processed

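The authors trimmed reads with Trim Galore 0.6.4, estimated abundance on mm10 with RSEM 1.2.28 and Bowtie2 2.4.1, and deposited TPM of 21975 Ensembl genes per library, as the submitters' processing notes and tables give it; they tested counts with DESeq2 1.36.0, which was not repeated here. GENCODE vM21 gave a symbol to 21856 genes and none to 119. The 10695 tested genes had a group mean over 5 TPM on some side, in injured or in sham mice. Cntf, C3, Ucma, Prg4, Gm17604, Tmem125, Rtn4r, Tonsl, Fam84b, Cd164l2, Gm10974, Gm10337, Klf4, Lif and Foxc1 passed this filter through 1 of the 4 group means only. The difference of log2(TPM + 1), ipsilateral minus contralateral, was fitted in limma 3.58.1 (R 4.3.3), injured against sham in 1 fit of 17 mice. Called means p below 0.05 before adjustment together with at least 1.2-fold; Benjamini-Hochberg adjusted counts stand beside. Errors of contrasts are limma standard errors. For single genes, exact two-sided permutation p-values came from all 6188 splits of the mice.

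The variance trend of limma was set on the mean log2 level of a gene after first results had been seen, because the default for a table of differences uses the mean difference. Counts with the level, the mean difference and no trend were 695, 723 and 726 for the contrast, 317, 314 and 311 for PTE+ against PTE-, 490, 471 and 479 in injured mice and 967, 1018 and 1019 in sham mice, and the adjusted count in injured mice was 19, 0 and 15.

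Both libraries of a mouse were paired by the name in the sample labels. As a check, deviations of a library from its group mean correlated across genes within a mouse with a median of 0.497 (range 0.0733 to 0.676; 16 of 17 mice exceeded 0.1), and between different mice with a median of -0.0512 (152 pairs). Mice a8_17, a9_19 and a9_14 had 1 library each and were left out. Genes named singly were the 10 largest called contrasts in each direction, genes the study names, members of the gene lists that were called and up to 4 abundant others, the 5 largest by outcome in each direction, and the 10 most alike across hemispheres. Members and lists were chosen with earlier results of these data known. The TPM sum of the microglia list is not reported here. Python 3.11.15 with numpy 2.4.6, pandas 2.3.3 and matplotlib 3.10.9 made tables and figures.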

Additional observations from a re-analysis of the deposited data

Results flagged for a closer look

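Among 68 sets of hemisphere differences, 3 had a mouse far from the others, and chance gives about 1 in 20. Bace2 was -2.05 in sham mouse a9_10, with the other sham mice between -0.85 and -0.44. Gm10974, a gene model with little known function, was -1.72 in PTE- mouse a9_15, with the other PTE- mice between -0.55 and 0.19. Cd164l2, a sialomucin-like gene, was 3.23 in sham mouse a8_16, and its contrast was -1.01 ± 0.45 with that mouse and -0.46, not called, without it.

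The hemisphere difference was called between mice with and without epilepsy for Slc47a1 (PTE+ minus PTE- -2.18, exact permutation p = 0.00909), Ccn3 (-1.94, 0.0227) and Gm10800 (2.94, 0.0818). All 3 differences had an unadjusted p under 0.05 in limma and none an adjusted one, with 318 genes of 10695 at an unadjusted p under 0.05. Gm10800 reached 3094 TPM in the contralateral library of PTE- mouse a8_11.

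The libraries without a partner from the other hemisphere entered no within-mouse difference. In PTE+ mouse a9_19 the ipsilateral library held 970.3 TPM of Gfap, 149 of C4b, 146 of Serpina3n, 193 of Vim and 14.9 of Cntf. The highest ipsilateral sham values were 373, 69.0, 103, 94.0 and 3.34 TPM in the same order, so this mouse lay above every sham mouse for these 5 genes. In PTE- mouse a9_14 the ipsilateral library held 142 TPM of Serpina3n, 139.6 of Vim and 22.7 of Cntf, above every sham mouse, beside 179 of Gfap and 34.4 of C4b, which were not. That library had 10727 genes above 0 TPM, fewer than any library with a partner.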

How the results depend on the processing

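Of the 47 named genes called in the contrast, 6 were called in each of 14 settings, and 21 with each of 17 mice left out. Of the 118 named genes not called, 40 were called in at least 1 setting. Without a filter on TPM the contrast had 1143 calls and PTE+ against PTE- 585; a filter at 1 TPM gave 736 within injured mice. A fold change of at least 1.5 left 197 calls in the contrast, 153 for PTE+ against PTE-, 76 within injured mice and 131 within sham mice, and no fold threshold gave 990 within injured mice. At an adjusted p under 0.05 limma called 0, 0, 19 and 0. The 0 became 1 in the contrast without a filter on TPM and with an estimated block, in PTE+ against PTE- without a9_12, and in sham mice without a9_11. Quantile normalization gave 582 within sham mice. Without the pairing, that is with no replicate block, the contrast had 206 calls, PTE+ against PTE- 73, injured mice 233 and sham mice 315. With all 37 libraries and the mouse as an estimated block (consensus correlation 0.629) the contrast had 665 calls.

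Leaving out 1 mouse at a time gave 408 to 1107 calls in the contrast, 136 to 832 for PTE+ against PTE-, 427 to 599 within injured mice and 529 to 1256 within sham mice. The mice whose names begin with 8 alone gave 1094 calls in the contrast and those with 9 gave 522; what the prefix stands for is not stated. Leaving out sham mice a8_16 and a9_10 together, chosen after seeing the data, gave 421 in the contrast and 501 within sham mice, and 22 of the 47 named genes were still called. The median absolute hemisphere difference per mouse, injured minus sham, changed sign in mice with prefix 9 (0.0113) and without those 2 sham mice (0.000514). Jak2 (-0.60) and Camk2a (-0.86) changed sign in mice with prefix 8. With the variance trend on the mean difference, added after seeing the data, 41 of the 47 named genes were called, and Cntf (p = 0.557), Ucma (p = 0.245), C3 (p = 0.0646), Lcn2 (p = 0.712), Cd44 (p = 0.0603) and Il6st (p = 0.0533) were not; with no trend 46 were. Among genes named above and called in the contrast, calls were lost in mice with prefix 8 alone by Abcb1a, Bag3, Cd44, Cd59a, Cntf, Ggta1, Gm10337, Hapln2, Id3, Il6st, Prg4, Rbm46, Rtn4r, S100a10, Stat3, Synm, Tmem125 and Tonsl. In those with prefix 9 alone they were lost by 1500015O10Rik, Aqp4, Bag3, C3, Ccn3, Cd164l2, Gad1, Gm10974, Gm17604, Id3, Id4, Il6st, Kcnab3, Lcn2, Lgals3, Lyz2, Olig1, Rbm46, Rtn4r, S100a10, Synm, Tonsl, Zfp433 and Zkscan6. Without a8_16 and a9_10 together they were lost by Aspg, Bag3, Ccn3, Cd164l2, Cd55, Ggta1, Gm10974, Hapln2, Id3, Il6st, Kcnab3, Lcn2, Lgals3, Lyz2, Olig1, Prg4, Rbm46, Rtn4r, S100a10, Slc47a1, Synm, Timp1, Tmem125, Tonsl and Zfp433. Quantile normalization ended the calls of Abcb1a, Bag3, Cd44, Gad1, Ggta1, Il6st, Rbm46 and Synm. Centring ended those of Aqp4, Bag3, Cd44, Gad1, Id3, Id4, Il6st, Rbm46, Stat3 and Synm. Array weights ended those of Bag3, Cd164l2, Hapln2, Id3, Lcn2, Rtn4r, Tmem125 and Zfp433. A pseudocount of 0.1 ended those of Cd44, Gm10337, Gm10974, Gm17604, Hapln2, Kcnab3 and Lcn2. The exact permutation p was 0.05 or more for Gm17604, Hapln2, Rtn4r, Synm, Cd44 and Il6st. Fewer genes or samples enter the filters and the left-out fits by construction; the cause of the other changes was not tested.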

Other observations

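Lif, another cytokine of the gp130 group, and Ptx3 and Cd14 of the A2 type list were higher on the injured side within injured mice, while none of the 3 was called in the contrast with sham mice. The values were 0.44 in injured and 0.05 in sham mice for Ptx3, a secreted pattern recognition protein, and 0.55 and -0.23 for Cd14, a coreceptor for bacterial lipopolysaccharide (mean log2 hemisphere difference). Ceacam1 was lower on the ipsilateral side within injured mice (-0.47), with -0.52 in sham mice.

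The share of genes with a higher ipsilateral level ran from 33.5% to 68.0% in injured mice and from 29.1% to 50.1% in sham mice (exact permutation p of the difference in means 0.0882). Across genes, the levels of the hemispheres of a mouse correlated with r from 0.950 to 0.984 in injured and from 0.957 to 0.985 in sham mice; genes are not independent replicates. Genes more than 2-fold apart made up 1.06% to 6.88% of tested genes in injured mice and 0.636% to 6.70% in sham mice.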
